A study of Mus musculus with 2 samples.

Results

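A set of 10 genes that mark radial glia and astrocytes was followed in RNA of the embryonic mouse midbrain, 10 of the 43346 genes in the deposited gene tables. They were chosen by name, as rows whose Ensembl identifier maps to the symbols Fabp7, Nes, Vim and Slc1a3, known from radial glia, and Slc1a2, Gja1, Aldh1l1, Aldoc, Gfap and Aqp4, known from astrocytes. Their transcripts were the 47 rows of the transcript tables with the same gene identifiers. The series holds 1 group, midbrain of healthy embryos of mouse strain B6NCrl at 13.5 days, in 2 libraries that the labels number as biological replicates 1 and 2. Each library was made from 10 ng of total RNA longer than 200 nt, with spike-in RNA, from pooled tissue of male and female embryos. No treatment, mutant or second age was compared, so the data answer which of these genes were present, in what order, by which transcripts, and how far the libraries differed.

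Radial glia are the stem cells of the embryonic neural tube. Their cell bodies line the ventricle, their long fibres reach the outer surface and guide migrating neurons, and they divide to give neurons first and astrocytes and oligodendrocytes later. Nestin and vimentin build their intermediate filaments, the fatty-acid binding protein FABP7 fills their cytoplasm, and the glutamate transporter GLAST (Slc1a3) appears on them early and stays in astrocytes. GFAP, aquaporin 4 and the transporter GLT-1 (Slc1a2) are best known from maturing and adult astrocytes.

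The midbrain label was checked against region genes chosen after the other results were known. All 8 midbrain genes were detected (1 TPM or more in each library, where TPM is abundance per transcript length), against 60.2% of protein-coding genes. Otx2 was the highest at 110.8 ± 8.966 TPM (SD over n = 2 libraries). En2 had the lowest mean, from 1.6 TPM in replicate 1 and 1.72 in replicate 2. The 4 hindbrain Hox genes were at or below 0.24 TPM. The libraries differed in region genes. The dopaminergic gene Th had 18.3 TPM in replicate 1 and 46.8 in replicate 2. Emx1, known from the dorsal forebrain, had 1.5 and 5.61 TPM, and the dopaminergic factor Pitx3 1.32 and 7.68. Of the 8 midbrain genes 8 were higher in replicate 2, with a median log2 ratio of scaled counts, replicate 1 over replicate 2, of -0.40. Of all 14366 genes with enough reads 50.9% were higher in replicate 2, with a median of 0.00. Values of each library are therefore given below.

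Fabp7 and Vim, known from radial glia, stood highest, and Gfap and Aqp4, known from mature astrocytes, stood lowest. Levels are in TPM, as mean ± SD over the libraries (n = 2). Fabp7 stood at 1072 ± 83.0 TPM and Vim at 631 ± 16.4 TPM, followed by Gja1 (64.8 ± 5.19), Slc1a3 (64.6 ± 2.98) and Nes (54.95 ± 6.39). Aldh1l1 (23.8 ± 1.48), Aldoc (21.9 ± 0.361) and Slc1a2 (18.67 ± 3.804) formed a lower set. Aqp4 stayed below 1 TPM in both libraries, and Gfap had 1 read in all. A gene was counted as detected where each library gave it 1 TPM or more, which held for 8 of the 10 genes, against 34.3% of all genes and 60.2% of protein-coding genes. The exceptions were Gfap and Aqp4. In bulk tissue, fewer cells of a type and less RNA per cell cannot be told apart.

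Promoter windows of 4 genes are shown from RefSeq (GRCm38.p6), each running from 250 bases before to 50 bases after an annotated start on the gene's own strand. Capitals mark exact matches on either strand to 4 short motifs. They are the TATA box with the letters TATAAA, the CCAAT box of that spelling, and the core of the site bound by the Notch effector RBPJ, which is TGGGAA. The last is the GC box, spelled GGGCGG. Fabp7 and Gfap are shown as the highest and the lowest of the genes, the pair of Aldoc windows because its reads divided between their starts, and the Slc1a2 window because the expected counts of the transcripts that begin in it were 0.
Fabp7, chr10:57784673-57784972, plus strand: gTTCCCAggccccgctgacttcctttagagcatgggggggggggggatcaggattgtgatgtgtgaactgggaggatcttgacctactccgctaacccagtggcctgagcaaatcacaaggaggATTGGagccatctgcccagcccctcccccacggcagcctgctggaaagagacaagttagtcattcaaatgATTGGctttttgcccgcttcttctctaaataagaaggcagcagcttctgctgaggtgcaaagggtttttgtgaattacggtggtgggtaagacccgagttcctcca
Gfap, chr11:102897151-102897450, minus strand: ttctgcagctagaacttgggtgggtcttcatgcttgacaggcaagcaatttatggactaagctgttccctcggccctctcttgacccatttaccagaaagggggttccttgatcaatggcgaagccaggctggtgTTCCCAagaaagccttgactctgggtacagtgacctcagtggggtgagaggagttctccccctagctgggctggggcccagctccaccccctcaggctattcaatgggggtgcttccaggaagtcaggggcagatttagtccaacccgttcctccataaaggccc
Aldoc, upstream start, chr11:78322823-78323122, plus strand: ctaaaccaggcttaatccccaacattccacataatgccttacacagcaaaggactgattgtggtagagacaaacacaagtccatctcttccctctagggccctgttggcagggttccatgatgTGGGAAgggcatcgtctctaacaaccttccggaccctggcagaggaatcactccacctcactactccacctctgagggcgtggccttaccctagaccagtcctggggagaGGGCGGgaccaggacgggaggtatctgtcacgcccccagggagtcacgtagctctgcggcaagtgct
Aldoc, downstream start, chr11:78323948-78324247, plus strand: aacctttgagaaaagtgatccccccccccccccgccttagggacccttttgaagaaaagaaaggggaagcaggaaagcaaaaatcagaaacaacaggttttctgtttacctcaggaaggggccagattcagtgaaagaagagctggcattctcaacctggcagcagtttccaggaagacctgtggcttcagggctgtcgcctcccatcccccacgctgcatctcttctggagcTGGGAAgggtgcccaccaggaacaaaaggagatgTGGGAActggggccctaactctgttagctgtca
Slc1a2, downstream start, chr2:102706188-102706487, plus strand: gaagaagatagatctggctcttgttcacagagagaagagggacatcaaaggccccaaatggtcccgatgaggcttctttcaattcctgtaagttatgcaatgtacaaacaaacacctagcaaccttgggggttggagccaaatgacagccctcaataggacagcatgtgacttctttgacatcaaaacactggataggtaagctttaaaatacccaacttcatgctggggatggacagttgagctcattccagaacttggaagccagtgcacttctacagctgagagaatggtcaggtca

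The Fabp7 window held 2 CCAAT boxes, 1 RBPJ core and 6 CpG dinucleotides, and the Gfap window 1 RBPJ core and 3 CpG. None of the 4 motifs was found in the Slc1a2 window, which had 1 CpG. For comparison, a TATA box was present in 13.6% of the 32851 RefSeq windows, a CCAAT box in 37.4%, an RBPJ core in 25.6% and a GC box in 35.7%, and the median window had 7 CpG. Of the windows not printed, that of Vim held 1 TATA box and 2 CCAAT boxes and that of Nes 2 GC boxes, with 11 and 18 CpG. These matches describe letters in a window and not bound sites. The Fabp7 and Gfap windows are placed on an annotated start that lies 42 and 69 nt from the start of the coding transcript taken as the main one. The whole Vim window, 13574061 to 13574360, lies downstream of its main coding start at 13573952. The main coding starts of Fabp7, Gfap and Vim are those of GENCODE M21. It holds other versions of these transcripts than the deposited data.

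**Figure D1:**
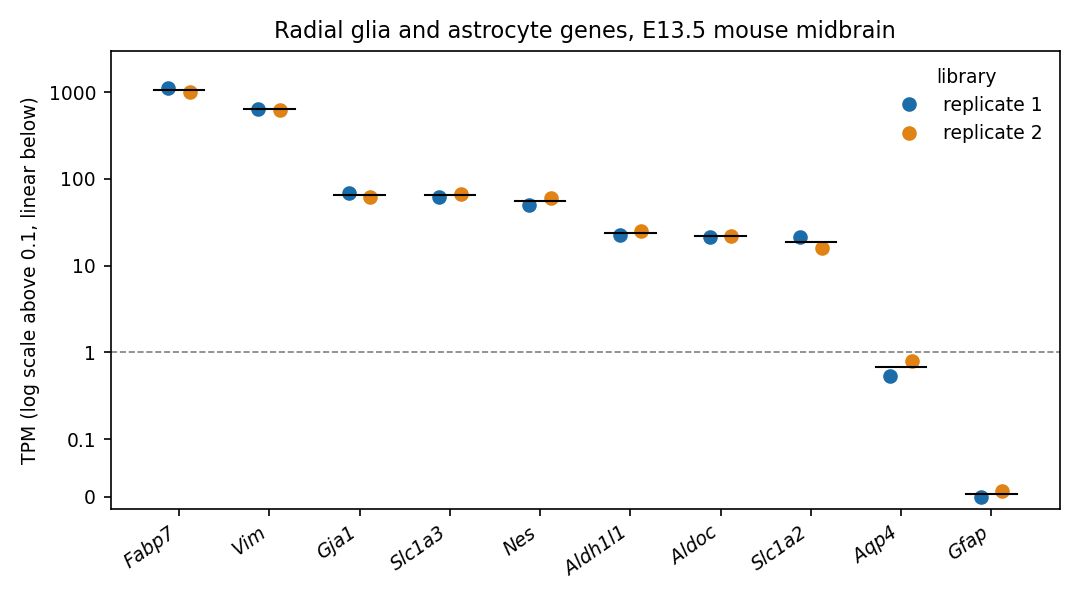
TPM of the 10 genes (vertical axis, logarithmic above 0.1 and linear below) in replicate 1 and replicate 2, with a bar at the mean and a dashed line at 1 TPM. Fabp7 and Vim stand at 619 TPM or more, the middle genes lie between 15.98 and 68.5 TPM, and Aqp4 and Gfap lie under the line in both libraries.

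Fabp7 encodes the brain fatty-acid binding protein, a carrier of long-chain fatty acids in radial glia and a known target of Notch signalling. The gene (ENSMUSG00000019874, chromosome 10, 57784881 to 57788450 of GRCm38) had 1130 TPM in replicate 1 and 1013 in replicate 2, from 15994 and 19117 reads. It ranked 62nd of 12929 detected protein-coding genes. Fabp5, the epidermal form, followed in its family with 721 and 634 TPM, and Fabp3, the heart form, had 93.7 and 79.7. Fabp7 exceeded Fabp5 in both libraries, by 0.66 ± 0.02 on the log2(TPM + 0.1) scale (SD, n = 2), which is 1.58-fold (limma, adjusted p = 0.000631). Of the 7 family genes listed here, the other 4, Fabp1, Fabp2, Fabp4 and Fabp6, did not reach 1 TPM in both libraries. Fabp1 had 1.54 TPM in replicate 1 and 0.16 in replicate 2. Almost all Fabp7 abundance, 98.6% in replicate 1 and 98.9% in replicate 2, came from the 804-nt transcript ENSMUST00000020024 with 4 exons.

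Vim encodes vimentin, the filament protein of radial glia, endothelium and mesenchyme. It lies on chromosome 2 (13573927 to 13582826) and had 643 TPM in replicate 1 and 619 in replicate 2, rank 132 among detected protein-coding genes. Fabp7 stood 1.70-fold above it, by 0.81 and 0.71 on the log2 scale in replicates 1 and 2 (limma, adjusted p = 0.000918), and 2.93-fold with protein-coding transcripts alone. Nes, which encodes nestin, a large filament protein of neural stem cells that assembles with vimentin (chromosome 3, 87971078 to 87980451), was far lower, at 50.4 and 59.5 TPM from 5914 and 8606 reads. Vim exceeded Nes by 3.52 ± 0.21 on the log2 scale, 11.5-fold (limma, adjusted p = 2.23e-05), and 7.16-fold with protein-coding transcripts alone. Among detected protein-coding genes 23.6% stood above Nes.

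Gfap encodes the glial fibrillary acidic protein, the filament of mature and reactive astrocytes (chromosome 11, 102887336 to 102900912). It had 0 reads in replicate 1 and 1 read in replicate 2, listed as 0 and 0.01 TPM. A count of 3 reads, the limit that a count of 0 allows, would be 0.0599 TPM on its 2600-nt coding transcript in replicate 1. The deposited intervals of the posterior estimate reached up to 0.608 TPM in replicate 1 and 0.477 in replicate 2. That estimate placed 83.1% and 76.6% of its abundance on a 356-nt noncoding transcript, on which 3 reads would be worth 0.583 TPM in replicate 1 and 0.437 in replicate 2. Even the upper bounds lay below 1 TPM. A noncoding gene on the opposite strand, Gm26668, overlaps 13577 nt of Gfap and had 0.98 and 1.19 TPM. Its part in the Gfap count was not tested.

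Among the other intermediate filament genes, those of neurons were high. Ina, which encodes alpha-internexin of young neurons, had 392 and 398 TPM, the light neurofilament gene Nefl 166 and 145, and the medium one Nefm 82.8 and 79.7. Prph, known from peripheral and brainstem neurons, had 5.69 and 5.61 TPM and Synm, which encodes synemin, 1.35 and 1.55. The muscle gene Des and the heavy neurofilament gene Nefh were under 1 TPM. The difference of Nes from Ina was -2.85 ± 0.15 on the log2 scale (limma, adjusted p = 5.01e-07). Vim lay above Ina by 0.67 ± 0.05 (limma, adjusted p = 0.00117) when all transcripts were summed. With protein-coding transcripts alone Vim had 374 and 355 TPM and the difference from Ina was -0.12 ± 0.07, so their order depends on the Vim retained-intron transcripts.

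**Figure D2:**
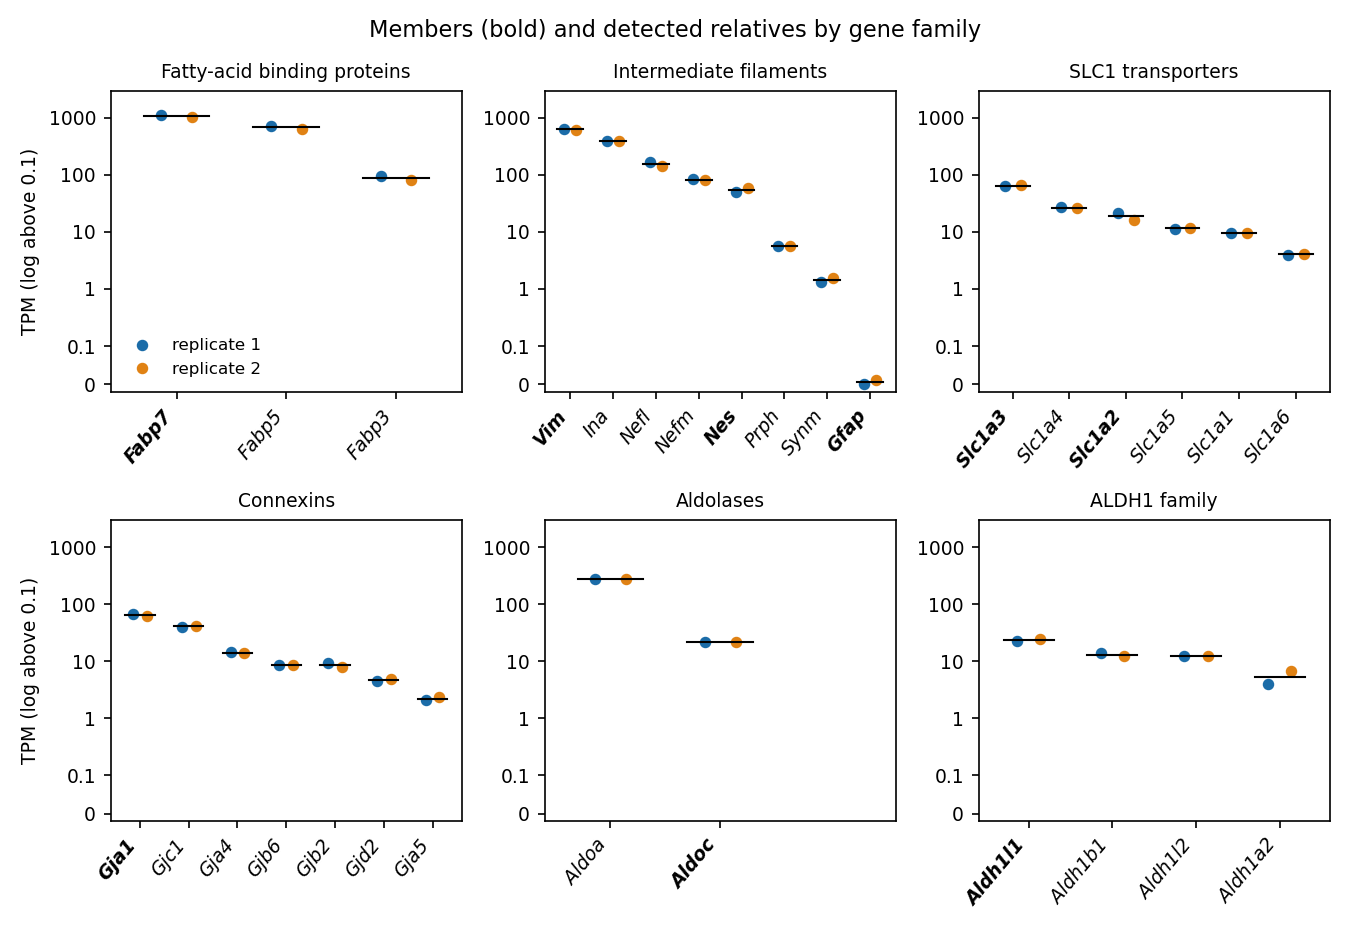
TPM (vertical axis, logarithmic above 0.1) of each member gene in bold and of its detected relatives in 6 gene families, with points for replicate 1 and replicate 2 and a bar at the mean. Fabp7, Vim, Slc1a3, Gja1 and Aldh1l1 lead their families with all transcripts summed (Ina stands above Vim with protein-coding transcripts alone), and Aldoc lies below Aldoa.

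The glutamate transporters known from glia stood apart. Slc1a3, which encodes GLAST (chromosome 15, 8634124 to 8710764, minus strand), had 62.5 TPM in replicate 1 and 66.7 in replicate 2. Slc1a2, which encodes GLT-1, the main glutamate transporter of the adult forebrain (chromosome 2, 102658659 to 102790784), had 21.4 and 15.98 TPM. The ranges did not overlap, and Slc1a3 exceeded Slc1a2 by 1.80 ± 0.36 on the log2 scale, 3.48-fold (limma, adjusted p = 5.57e-14, and 0.000651 with the spread of each gene taken by itself). The difference was 1.54 in replicate 1 and 2.06 in replicate 2. With protein-coding transcripts alone Slc1a3 stood 2.965-fold above Slc1a2. An antisense gene, Gm13872, overlaps 8854 nt of Slc1a2 and had 1.53 and 1.18 TPM. Slc1a3 also exceeded Slc1a1, the neuronal transporter EAAC1 (9.65 and 9.72 TPM), by 2.72 ± 0.06 (limma, adjusted p = 8.93e-07). Of the neutral amino acid transporters of the family, Slc1a4 had 26.97 and 25.9 TPM and Slc1a5 11.4 and 11.7. Slc1a6, known from Purkinje cells, had 3.99 and 4.04 TPM, and Slc1a7 was listed at 0 in both libraries.

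Gja1 encodes connexin 43, which couples radial glia and later astrocytes through gap junctions (chromosome 10, 56377330 to 56402513). It had 68.5 TPM in replicate 1 and 61.1 in replicate 2, the highest of 18 connexin genes. Gjc1, which encodes connexin 45, was next at 40.6 and 41.7 TPM, and Gja1 exceeded it by 0.65 ± 0.14 on the log2 scale (limma, adjusted p = 0.00131). The other astrocyte connexin, Gjb6 (connexin 30), had 8.62 and 8.57 TPM, which put Gja1 7.45-fold above it (limma, adjusted p = 2.87e-06). Gja4 had 14.6 and 13.9 TPM, Gjb2 9.30 and 7.81, the neuronal Gjd2 4.51 and 4.96, and the vascular Gja5 2.09 and 2.35. Gja1 is also known from meninges and vessel walls, whose markers were present.

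The metabolic enzymes of astrocytes were at moderate levels. Aldh1l1, the 10-formyltetrahydrofolate dehydrogenase used as a pan-astrocyte marker (chromosome 6, 90486427 to 90600203), had 22.8 TPM in replicate 1 and 24.9 in replicate 2. Aldh1l2, its mitochondrial relative, had 12.6 and 12.5, so that Aldh1l1 stood 1.89-fold higher (limma, adjusted p = 0.000235), and 2.46-fold with protein-coding transcripts alone. Aldh1b1 had 13.9 and 12.3 TPM, and Aldh1a2, a retinoic acid enzyme of the meninges, 4.08 and 6.70. Aldoc encodes aldolase C, the brain form of the glycolytic aldolase (chromosome 11, 78322968 to 78327781), and had 21.7 and 22.2 TPM. Aldoa, the widespread form, had 275 and 273 TPM, and Aldoc differed from it by -3.64 ± 0.03 on the log2 scale, 0.0804-fold (limma, adjusted p = 1.06e-06). Aldoa is known to have close copies in the genome, so its level may be uncertain, which was not tested.

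Aqp4 encodes aquaporin 4, the water channel of astrocyte endfeet. It had 54 reads in replicate 1 and 106 in replicate 2, or 0.54 and 0.80 TPM, with deposited intervals of 0.397 to 0.681 and 0.642 to 0.937. Of 12 aquaporin genes 2 were detected, against 60.2% of protein-coding genes, Aqp11 of intracellular membranes (7.59 and 7.98 TPM) and Aqp1 of choroid plexus (1.40 and 1.44).

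All 28 pairs of the 8 detected genes were compared within each library, on the log2(TPM + 0.1) scale, by limma's moderated test with Benjamini-Hochberg adjustment over every comparison of these genes with all detected genes. Of the 28 pairs 22 passed an adjusted p of 0.05, beside 92.3% of 119016 comparisons of these genes with all detected genes. The largest adjusted p of the 22 was 0.000918. Their differences ran from 0.76 to 5.85 on the log2 scale. Among the 7 neighbours in the order of level, Fabp7 over Vim, Vim over Gja1 and Nes over Aldh1l1 passed, the last by 1.20 ± 0.08. Gja1 and Slc1a3 did not (adjusted p = 0.985, with Gja1 higher in replicate 1 and Slc1a3 higher in replicate 2), nor did Slc1a3 and Nes (0.224), Aldh1l1 and Aldoc (0.467) or Aldoc and Slc1a2 (0.307). The other pairs that did not pass were Gja1 with Nes (0.218) and Aldh1l1 with Slc1a2 (0.129, and 0.0222 with the other gene subtracted). By this test the genes stood in 4 steps, namely Fabp7, then Vim, then Gja1 with Slc1a3 and Nes, and then Aldh1l1 with Aldoc and Slc1a2. Each pair was tested with either gene subtracted and the larger p is given, since the comparisons with 1 gene share its own difference between the libraries. That sharing lets limma count too many degrees of freedom, from 3.4 to 14900 among these fits, so these p-values, the smallest above all, can be too small. With a spread for each gene after centring the libraries, at 3.53 degrees of freedom, the same number of pairs passed (22), with a largest adjusted p of 0.00286, and the 8 pairs with relatives passed with a largest of 0.00581. A p that misses the threshold does not show equal levels.

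Grouped by the cell type they are known from, the 4 radial glial genes exceeded the 6 astrocyte genes by 3.32 ± 0.15 in median log2(TPM + 0.1) (n = 2). With 4 genes the radial glial median falls midway between Vim and Slc1a3, where none of them lies. No test is given for it, since the genes were chosen with results known, and Gja1 of the astrocyte set had a higher mean than Slc1a3 and Nes of the radial glial set, without passing the test against them.

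Further radial glial and astrocyte genes were counted for comparison. Of 20 further radial glial and progenitor genes 19 were detected, against 60.2% of protein-coding genes, with a median of 38.6 TPM in replicate 1 and 38.96 in replicate 2. The highest were Dbi, an acyl-CoA binding protein, at 537 ± 36.7 TPM, the Notch target Hes5 at 254 ± 22.8, N-cadherin (Cdh2) at 151 ± 5.52 and the serine synthesis enzyme Phgdh at 144 ± 6.58. The exception was Hopx, known from adult stem cells and cortical outer radial glia, at 0.46 ± 0.0707. Of 20 further astrocyte genes 16 were detected, with a median of 10.3 and 9.46 TPM. They were led by cystatin C (Cst3) at 361 ± 27.8, Apoe at 146 ± 7.50, glutamine synthetase (Glul) at 103 ± 2.96 and Sparcl1 at 55.2 ± 4.10. Those not detected were Cldn10 (0.81 and 0.79 TPM), the potassium channel Kcnj10 (0.80 and 0.77), S100b (0.14 and 0.24) and Agt (0 and 0.04). Cst3 and Apoe are also known from microglia and macrophages, whose 8 markers were all detected and summed to 96.2 TPM in replicate 1 and 108 in replicate 2. Their part in these levels was not tested.

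Markers of other cell types were counted by the same rule, and their counts stand beside the 60.2% of protein-coding genes detected. Cspg4 was counted in both the pericyte and the oligodendrocyte lineage lists. Of 8 neuronal markers 8 were detected (Tubb3 at 1618 ± 85.1 TPM), as were 8 of 8 endothelial (Cldn5 at 50.95 ± 3.52), 8 of 8 pericyte (Vtn at 99.1 ± 13.4), 7 of 8 meningeal (Col3a1 at 133 ± 21.01), 8 of 8 erythroid (Hba-a2 at 4867 ± 119) and 8 of 8 microglial ones (Pf4 at 32.96 ± 3.14). Of the oligodendrocyte lineage 7 of 8 were detected, led by Mbp at 12.04 ± 0.495, the exception being Sox10 at 0.505. The meningeal exception was Twist1 at 0.86 and 1.38 TPM. Of 6 ependymal markers 2 were detected, Foxj1 (5.04 and 9.71 TPM) and Rsph1, while Tmem212 and Ccdc153 were at 0.

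Transcript use separated Vim from the other genes. The tables give each transcript a percent of its gene's TPM. By that measure the leading Vim transcript was ENSMUST00000148248, a 535-nt form annotated as a retained intron, with 41.2% in replicate 1 and 41.9% in replicate 2. It has 5 exons and begins 5417 nt downstream of the full-length start, within the fourth intron. The full-length 2193-nt coding form ENSMUST00000028062, with 9 exons, had 29.9% and 30.4%, and a second coding form of 1777 nt 28.3% and 26.95%. By reads the order was different, since TPM divides by length. The 535-nt form took 13.9% and 14.2% of the Vim reads and the full-length form 48.5% and 49.6%. Both libraries gave these shares within 1.32 percentage points. Of 9469 detected protein-coding genes with several transcripts, 3.32% were led by a retained-intron transcript in both libraries. Any type other than protein-coding, nonsense-mediated decay forms included, led 8.03%. The summed share of retained-intron transcripts was 41.8% and 42.7% of Vim TPM, against 6.07% and 6.198% over all detected protein-coding genes.

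The coding transcript led in the other 6 detected genes with several transcripts. All 7 of these genes kept their leading transcript between the libraries, against 90.9% of 9965 genes. Slc1a3 gave 81.0% in replicate 1 and 77.7% in replicate 2 to its 4163-nt coding form, and its 4 retained-intron forms together held 13.8% and 14.9%. Nes gave 64.9% and 55.9% to the 6126-nt form and 32.6% and 32.4% to a 5958-nt form with 5 exons. The retained-intron form of Nes, ENSMUST00000159830 with 1311 nt, which runs into the second intron of the leading form, held 2.50% in replicate 1 and 11.6% in replicate 2. That is 30.7 reads in replicate 1 and 224 in replicate 2, or 0.519% and 2.602% of the reads of the gene. A difference of at least 5 percentage points in some transcript was seen in 50.1% of the 9965 genes, Nes and Aldh1l1 among them. The leading form of Aldh1l1 held 86.8% and 80.95%, and a 653-nt retained-intron form 0% and 5.68% (0 and 20.9 reads). Gja1 and Aqp4 each have 1 transcript in the tables.

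**Figure D3:**
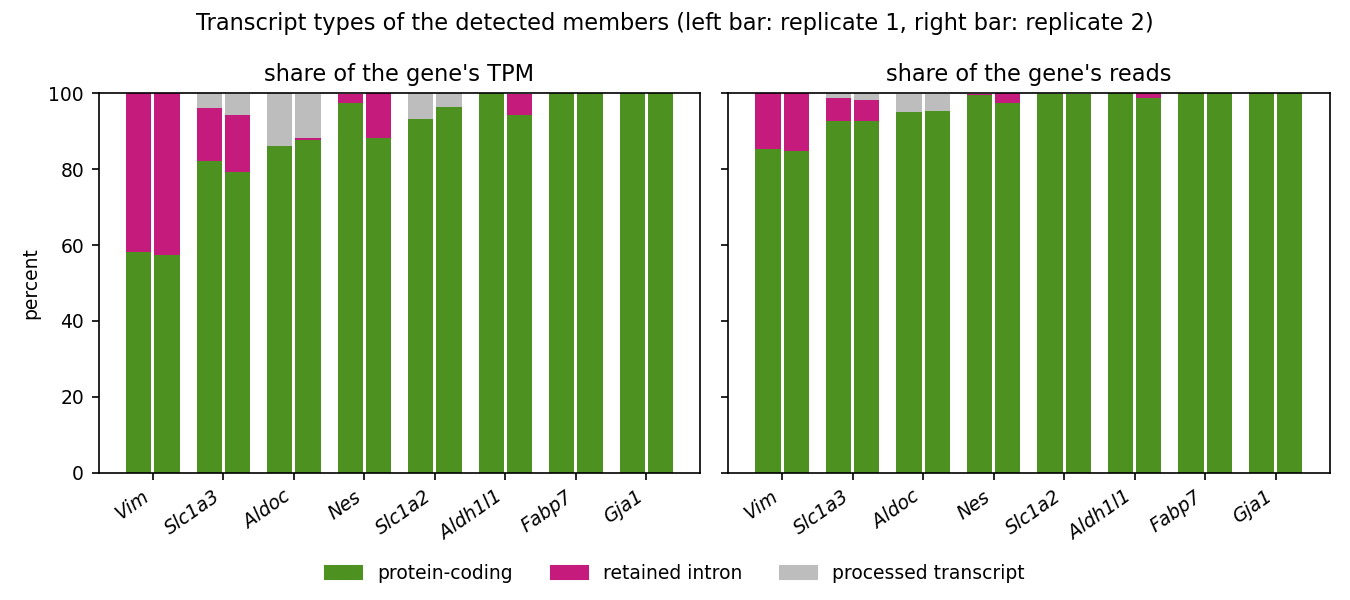
Share of each detected gene's TPM (left panel, percent) and of its reads (right panel, percent) given to protein-coding, retained-intron and processed transcripts, with replicate 1 as the left bar and replicate 2 as the right bar of each pair. Retained-intron forms take over 40% of Vim TPM but about 15% of its reads, and the Nes bars differ between the libraries.

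The starts printed above differed in use. For Aldoc, the 2 transcripts that begin in or just past the downstream window, at 78324200 and 78324326, held 76.5% of Aldoc TPM in replicate 1 and 78.97% in replicate 2, while the 2 that begin in or just past the upstream window, at 78322968 and 78323168, held 9.68% and 9.30%. The leading 1700-nt form starts 1232 nt downstream of the 2786-nt form. The downstream window holds 3 CpG and 2 RBPJ cores, one on either side of the start, and the upstream window 8 CpG, 1 RBPJ core and 1 GC box. For Slc1a2, the 5 transcripts that begin between 102658659 and 102659281 took 3879 of 3896 reads in replicate 1 and 4012 of 4026 in replicate 2. The 3 that begin between 102706356 and 102706438, inside the window printed above, had an expected count of 0 in both. The posterior estimate still gave the longest of these 3 2.64% and 3.40% of Slc1a2 abundance. The leading Slc1a2 form, ENSMUST00000080210, is 11595 nt long and held 77.4% and 79.96% of the TPM. These shares are model estimates and would change with the set of annotated isoforms. The starts are those of GENCODE M21. Its versions of the leading and downstream Slc1a2 forms and of the 2786-nt Aldoc form differ from those quantified.

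The libraries were then compared for the radial glial and astrocyte genes. No test is possible between single libraries, so the ratio of counts after TMM scaling, replicate 1 over replicate 2, is given with an exact 95% interval that covers counting error only. Of the 9 genes whose counts averaged 50 or more, 0 reached 2-fold, a size reached by 0.724% of 14366 genes (0.216% higher in replicate 1 and 0.508% higher in replicate 2). Their median absolute log2 ratio was 0.11, against 0.10 over all those genes. Slc1a2 was 1.25-fold higher in replicate 1 (interval 1.20 to 1.31), and Gja1 and Fabp7 were 1.09-fold (1.04 to 1.13) and 1.08-fold (1.06 to 1.10) higher in it. Vim stood at 1.01 (0.99 to 1.03) and Aldoc at 0.939 (0.85 to 1.04), with intervals that include equality. Slc1a3 (0.944), Aldh1l1 (0.927) and Nes (0.888, interval 0.859 to 0.918) were higher in replicate 2. Aqp4 stood at 0.661 (0.465 to 0.922), the only one of the 9 genes past 1.5-fold, a size reached by 3.31% of genes, 1.25% higher in replicate 1 and 2.06% higher in replicate 2. Its interval is wide because it rests on 54 and 106 reads.

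Markers of other cell types also differed between the libraries, some of them by little. Meningeal markers were higher in replicate 2 in 7 of 7 cases with enough reads, with a median log2 ratio of -0.38 and a sum of 281 TPM in replicate 1 and 347 in replicate 2. Endothelial markers were higher in replicate 2 in 8 of 8 cases (-0.16, sums of 109.6 and 118.6 TPM), microglial ones in 7 of 8 (-0.22) and erythroid ones in 8 of 8 (-0.12), while neuronal ones were higher in replicate 1 in 6 of 8 (0.05). Pericyte markers were higher in replicate 2 in 5 of 7 cases (-0.07) and those of the oligodendrocyte lineage in replicate 1 in 4 of 6 (0.12). Of the further radial glial genes 12 of 19 were higher in replicate 2 (-0.07), and of the further astrocyte genes 11 of 17 in replicate 1 (0.02). Over all genes with enough reads the median log2 ratio was 0.00 and the median absolute log2 ratio 0.10. Of those genes 49.1% were higher in replicate 1 and 50.9% in replicate 2. These values are the base against which the counts and medians above stand. Foxj1 of the ependymal list was 1.99-fold higher in replicate 2. The part of these shifts, and of the shift in region genes, in the differences of Slc1a2, Nes and Aqp4 was not tested.

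**Figure D4:**
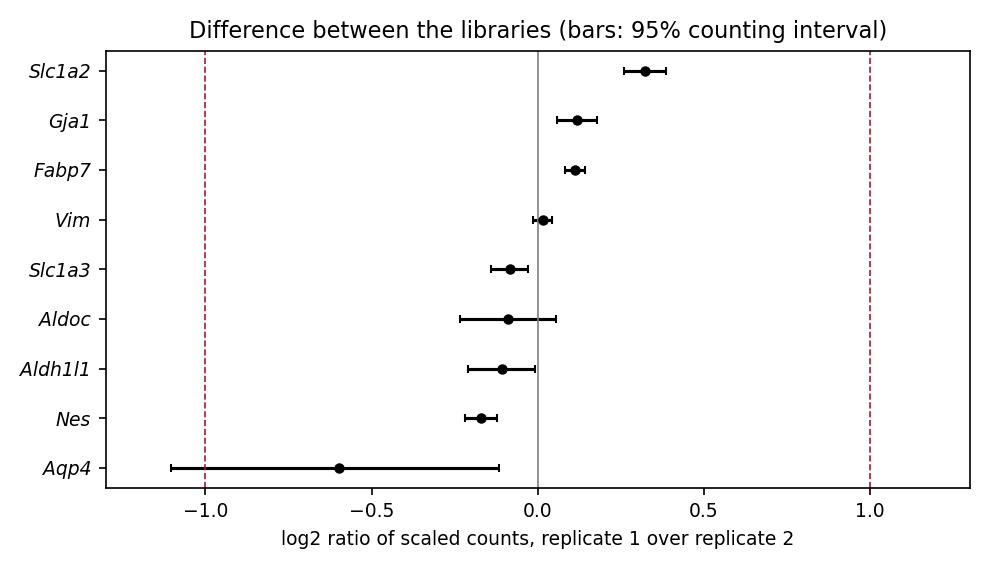
Log2 ratio of TMM-scaled counts, replicate 1 over replicate 2 (horizontal axis), for the 9 genes with enough reads, with bars for the 95% interval from counting error and dashed lines at 2-fold. All points lie between the lines, Slc1a2 is farthest to the replicate 1 side and Aqp4 farthest to the replicate 2 side with the widest bar.

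Replicate 1 held 31436613 and replicate 2 held 40215359 expected reads on genes, and the 10 genes together took 0.214% and 0.208% of gene TPM. The share of spike-ins in TPM was 5.36% in replicate 1 and 9.39% in replicate 2, so gene TPM summed to 946400 and 906100. The expected counts of 9 of the 10 genes were whole numbers within 0.005 in both libraries, Slc1a2 being the exception. The median coefficient of variation of TPM was 6.98% over the 8 detected genes and 6.02% over all detected genes.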

How the data were processed

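Total RNA was quantified in 2 libraries, each with values per gene and per transcript. The text files deposited with them name mm10 as assembly and M4 as annotation. Expected counts, as deposited, are estimated reads and can be fractional. The deposited TPM values are scaled to length and to a common total that includes spike-ins and tRNA entries, per the file headers and sums, and the deposited FPKM values to length and aligned reads. Deposited percent values give a transcript's share of its gene's TPM. The bounds of the TPM interval were also deposited, with no stated confidence level, and are treated as a score. The column names are those RSEM writes. Aligner, versions and use of strand: not given in the sources used here.

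Symbols, types and positions came from GENCODE M21 (GRCm38), matched on Ensembl identifiers for 42462 of 43346 genes, all 10 members and all 174 list genes included. Identifiers were matched without their version. The main coding transcript of every member but Aldoc had another version in M21 than in the deposited data. Starts, exons and distances given for such transcripts may thus differ from those of the quantified form. Promoters came from RefSeq (GRCm38.p6). Differences of log2(TPM + 0.1) were tested with limma 3.58.1 (two-sided) in R 4.3.3 on genes at 1 TPM or more in each library, adjusted by Benjamini-Hochberg, and each pair's larger p of 2 fits is given, a choice made after seeing the data. Rounded counts plus 0.5 were scaled by TMM in edgeR 4.0.16, with Clopper-Pearson intervals at 95%. Without molecular identifiers reads may be copies of 1 molecule, so intervals and limits cover counting error only. The labels give separate biosamples but 1 donor entry, so p-values and SDs cover only the spread between these 2 libraries. Fits were tested on simulated data.

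Members and lists were chosen with earlier results of these data known. Named genes are the members, their detected relatives, the 4 highest and the lowest of each further list, the highest of each marker list, markers at 0 and members of counts of 5 or fewer. Region genes were added last and lie outside this rule. Also outside it are relatives named though not detected, several undetected genes of the other lists, Rsph1, and the overlapping genes Gm26668 and Gm13872. Some genes are not reported here. Alternatives were other pseudocounts, FPKM, gene-only TPM, other filters, a variance trend, DESeq2 1.42.0 size factors, library totals, a 1.5-fold rule, posterior counts and each library alone. A ratio of TPM was also tried. A spread per gene after centring and coding transcripts alone were added after seeing the data.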

Additional observations from a re-analysis of the deposited data

How the results depend on the processing

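Over the alternatives run, 8 genes were detected, or 9 with Aqp4 at a minimum of 0.5 TPM or of 10 expected counts. The same number of pairs passed, 22 of 28, and 7 of 7 genes kept their leading transcript between the libraries. By expected or posterior count, the leading Vim transcript was the full-length coding form in both libraries. Without either replicate, 8 genes were detected and the difference between radial glial and astrocyte genes ran from 3.21 to 3.43 on the log2 scale. With means in place of medians it was 5.19. The mean of the astrocyte genes includes Gfap at 0 and 0.01 TPM and Aqp4 at 0.54 and 0.80 TPM. Their part in the change was not tested. The number of genes past 2-fold between the libraries was 0 with TMM, DESeq2 size factors, library totals or a ratio of TPM + 0.1. It was 1 with a 1.5-fold rule (Aqp4) and 1 with no filter on low counts (Gfap, with 0 and 1 reads). The TPM ratio moved some log2 ratios, to 0.42 for Slc1a2, 0.16 for Fabp7, -0.24 for Nes and 0.05 for Vim. With TMM these were 0.32, 0.11, -0.17 and 0.01. TPM rescaled to genes alone moved mean levels past their SD for Fabp7 (1156 TPM), Vim (681), Slc1a3 (69.8), Aldh1l1 (25.7) and Aldoc (23.7). Vim over Ina was -0.12 with protein-coding transcripts alone (added after seeing the data), against 0.67 with all, and retained-intron forms held 41.8% and 42.7% of Vim TPM. Samples could not be paired across groups because the series has 1 group, while genes were compared within each library. Gja1 over Slc1a3 ran from -0.13 to 0.13 with each library alone. Coding transcripts alone also moved Fabp7 over Vim to 2.93-fold, against 1.70. Vim over Gja1, Nes, Aldh1l1, Aldoc and Slc1a2 moved to 5.63, 7.16, 15.7, 19.01 and 20.7-fold, against 9.74, 11.5, 26.4, 28.65 and 33.97. Vim over Slc1a3 moved to 6.98-fold, against 9.76. Pairs without Vim moved too, among them Fabp7 over Slc1a3 (20.5-fold, against 16.55) and Slc1a3 over Slc1a2 (2.965, against 3.48). Aldh1l1 over Aldh1l2 moved to 2.46-fold, against 1.89, and Gja1 over Gjc1 to 1.82-fold, against 1.57. Every test rests on 2 libraries.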
